A study of Caenorhabditis elegans with 12 samples.

Results

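The genes described here are 9 cytochrome P450 genes of Caenorhabditis elegans: cyp-35A2, cyp-35A3, cyp-35A4, cyp-35A5, cyp-35B1, cyp-35C1, cyp-13A2, cyp-29A2 and cyp-29A4. They are 9 of 46929 genes in the deposited count table, and 7 of them had enough counts to be among the 14610 genes tested. The 9 genes were chosen from results of these same 12 libraries, and which diet comparison led to each choice is not recorded. Every difference of these genes between diets is therefore given as a description, and no p-value is printed for any of the 9. Where a p threshold is applied to them below, the outcome is a description as well. None of it is independent evidence for their choice.

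Whole worms were sequenced after feeding on 1 of 4 diets, with 3 libraries per diet. The diets were a control, desiccated thymus, a cytoplasmic extract of the thymus gland and a nuclear extract of the thymus gland, and the series title names the extracts as bovine. All worms, controls included, had been raised on NGM medium with live bacteria, written OPS0 in the labels, until the L4 larval stage, and the diets began on day 1 of adulthood. The labels also speak of ThymusFD, Thymex and ThymusPMG diets without tying these names to groups, and strain and age at collection are not given in the sources used here. Messenger RNA was enriched with oligo(dT) beads, although the molecule field of the labels reads nuclear RNA. Library totals ran from 23.1 to 33.4 in units of 1e6 counts. The share of ribosomal RNA genes was 0.377% to 2.16% for 11 libraries but 14.01% for desiccated thymus replicate 3. Nothing in the labels says that replicates came from separate cultures, so the spread between them, and every p-value that rests on it, may be technical.

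Cytochrome P450 enzymes are heme-containing monooxygenases that insert 1 oxygen atom into a fat-soluble substrate, drawing electrons from NADPH through P450 reductase. They act on foreign compounds in the first phase of detoxification and on internal lipids such as fatty acids, eicosanoids and sterols. In C. elegans the intestine is both gut and main detoxifying and fat-storing tissue, and genes of the cyp-35 family are known to be induced there by many foreign compounds. The libraries come from whole worms, so the label "of the gut" could not be checked by tissue. In bulk samples of this kind, fewer cells of a type and less RNA per cell cannot be told apart.

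Levels of the 9 genes were compared with each other as CPM per kilobase, which is counts per 1e6 counts of a library, divided by exon length. Averaged over the 12 libraries, cyp-35B1 stood at 16.9 CPM per kilobase, rank 7 of the 75 protein-coding P450 genes of the worm. Next came cyp-35A2 at 5.27 (rank 17), cyp-13A2 at 4.12 (rank 24), cyp-35C1 at 2.78 (rank 27), cyp-29A2 at 2.42 (rank 28) and cyp-29A4 at 1.78 (rank 33). The other 3 cyp-35A genes among the 9 lay far lower, cyp-35A5 at 0.258, cyp-35A4 at 0.0620 and cyp-35A3 at 0.0595 CPM per kilobase. The highest P450 gene of the worm, cyp-31A2, reached 88.99 CPM per kilobase.

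**Figure D1:**
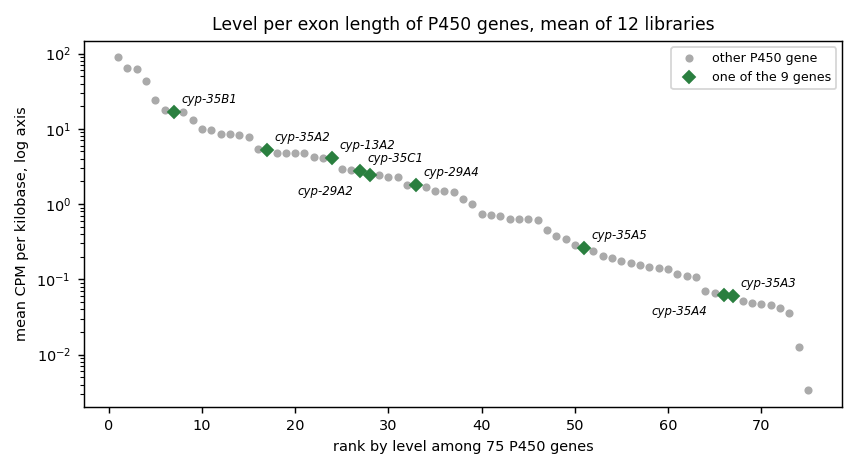
Mean level of the 75 protein-coding P450 genes over the 12 libraries, in CPM per kilobase of exon on a log axis, against their rank. The 9 genes are green diamonds, from cyp-35B1 at rank 7 to cyp-35A3 at rank 67, and the other 66 are grey circles.

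The order of the genes differed a little between diets. In the control, cyp-35B1 led with 21.2 ± 1.96 CPM per kilobase (SD, n = 3), followed by cyp-35A2 with 3.65 ± 0.624, cyp-13A2 with 2.91 ± 0.402, cyp-35C1 with 2.64 ± 0.842, cyp-29A2 with 1.94 ± 0.489 and cyp-29A4 with 1.04 ± 0.109. The control libraries of neighbours in this order overlapped from cyp-35A2 down to cyp-29A2, so only cyp-35B1 at the top and cyp-29A4 below were set apart among these 6. With desiccated thymus, cyp-35B1 stood at 18.1 ± 3.44 CPM per kilobase, cyp-35A2 at 6.63 ± 0.323 and cyp-13A2 at 5.79 ± 0.756. There the ranges of cyp-35A2 and cyp-13A2 overlapped, and both lay above cyp-29A2 at 3.16 ± 0.533. cyp-35B1 was the top gene of the 9 in every library, but its share of their summed counts differed between diets. It took 58.3% to 63.2% of them in the control, 38.2% to 48.2% with desiccated thymus, 48.9% to 53.0% with the cytoplasmic extract and 37.6% to 39.7% with the nuclear extract.

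Compared with the control, 3 of the 7 tested genes were called higher and 0 lower with desiccated thymus. A gene was called when its adjusted p was under 0.05 in edgeR's quasi-likelihood test, with Benjamini-Hochberg adjustment over all 14610 genes. Over all tested genes, 3.00% were called higher and 0.938% lower in that comparison. With the nuclear extract 3 of the 7 were called higher and 1 lower, against 8.62% and 4.72% of all tested genes. With the cytoplasmic extract 0 were called in either direction, while 0.459% of all tested genes were called higher and 0.192% lower. At an unadjusted p under 0.05, 2 of the 7 were higher and 1 lower with the cytoplasmic extract, and DESeq2 also called 0. Because the genes were chosen on these libraries, nothing is read from the difference between these counts and the shares over all genes. The 3 comparisons share the 3 control libraries. Full separation of the 3 libraries of a diet from the 3 controls was common among all tested genes. It was seen for 20.2% of them with desiccated thymus, 17.7% with the cytoplasmic extract and 33.3% with the nuclear extract. Where it is given for single genes below, it is a description only.

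**Figure D2:**
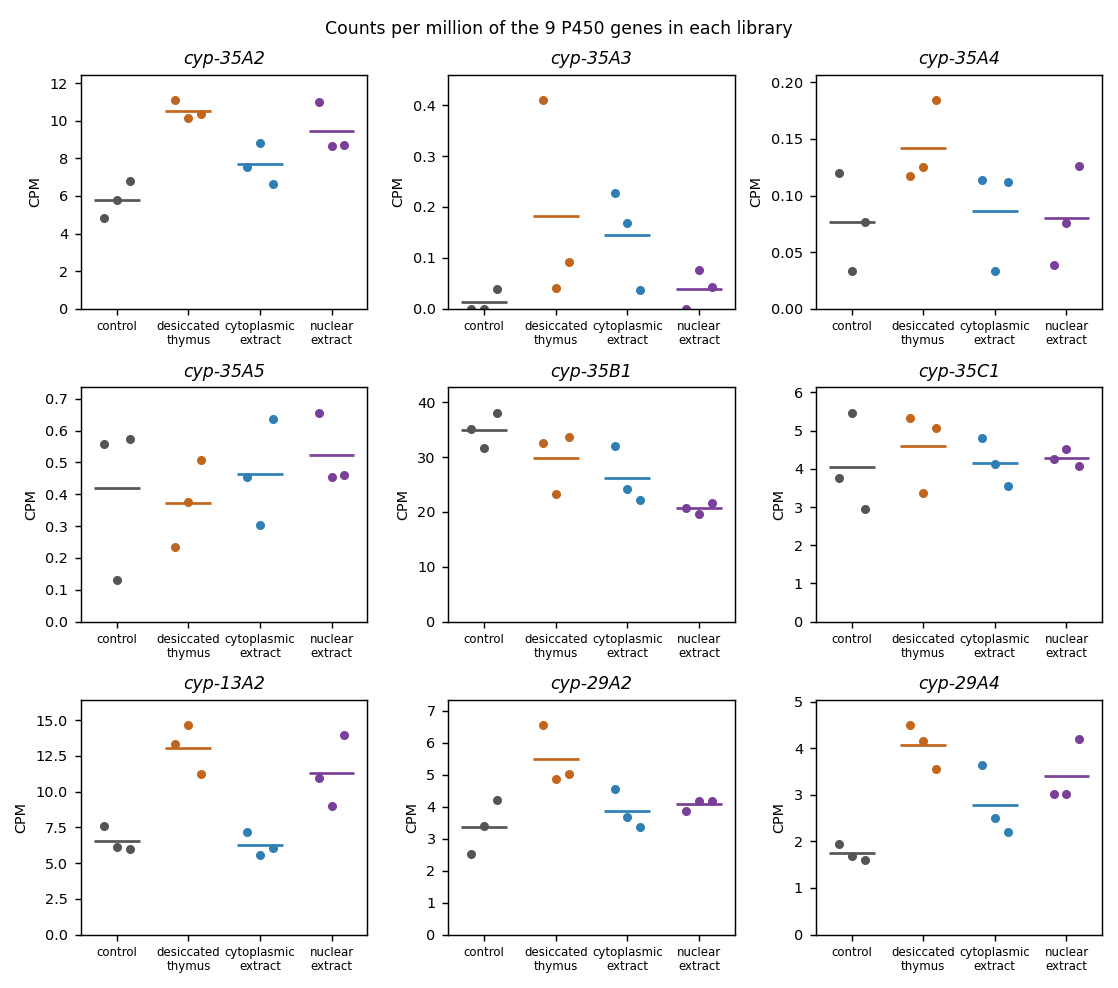
CPM of each of the 9 genes in each library, by diet, with 1 panel per gene and its own axis from 0. Points are the 3 libraries in order of replicate number and bars are their means. cyp-13A2 and cyp-35A2 are higher in all libraries of desiccated thymus and the nuclear extract than in the control, and cyp-35B1 is lowest with the nuclear extract.

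Among the 7 tested genes the largest difference from the control was that of cyp-29A4 (CELE_B0331.1), on the plus strand of chromosome V at 9654755 to 9658120 in WBcel235, with 8 exon blocks. Its family belongs to the same clan as the mammalian P450s that hydroxylate fatty acids. It gave 1.95, 1.68 and 1.61 CPM in control replicates 1, 2 and 3, and 4.49, 4.16 and 3.55 with desiccated thymus. It gave 3.63, 2.50 and 2.20 CPM with the cytoplasmic extract and 3.01, 3.02 and 4.19 with the nuclear extract. All 9 libraries of worms fed thymus material were above all 3 controls, while the 3 thymus diets overlapped each other. The log2 fold change against the control was 1.22 ± 0.218 (SE) with desiccated thymus, or 2.33-fold, and the gene was called. For the nuclear extract it was 0.96 ± 0.220, or 1.95-fold, and called, but the call was lost without nuclear extract replicate 3, where it was 0.79. With the cytoplasmic extract it was 0.67 ± 0.220 and not called. Raw counts of this gene were low, between 42 and 153 per library.

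cyp-13A2 (CELE_T10B9.7) belongs to a family related to the mammalian drug-metabolising P450s of the liver. It lies on the minus strand of chromosome II, at 9783384 to 9787629, in a row of cyp-13A genes and 1167 bases from cyp-13A3. Control replicates 1 to 3 held 7.61, 6.13 and 5.96 CPM and the cytoplasmic extract 7.14, 5.56 and 6.05. Desiccated thymus gave 13.3, 14.6 and 11.3 CPM and the nuclear extract 10.97, 8.98 and 13.95. The libraries fell into a lower set, the control and the cytoplasmic extract, which overlapped, and a higher set, desiccated thymus and the nuclear extract, which also overlapped each other. Against the control the log2 fold change was 1.00 ± 0.169 with desiccated thymus and 0.78 ± 0.169 with the nuclear extract, both called, and -0.07 ± 0.171 with the cytoplasmic extract. Its neighbour cyp-13A3 was too low to test, with 83 counts over all 12 libraries.

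cyp-35A2 (CELE_C03G6.15) is a member of the cyp-35A subfamily, whose knockdown is known to lower fat storage in the worm. It lies on the minus strand of chromosome V at 7362319 to 7364182, in 7 exon blocks. It gave 4.82, 5.77 and 6.80 CPM in the control and 11.1, 10.2 and 10.3 with desiccated thymus. It gave 7.56, 8.84 and 6.61 CPM with the cytoplasmic extract and 10.97, 8.64 and 8.72 with the nuclear extract. Every library of desiccated thymus and of the nuclear extract was above every control, whereas the cytoplasmic extract overlapped both the control and the nuclear extract. The log2 fold change against the control was 0.86 ± 0.154 with desiccated thymus and 0.70 ± 0.155 with the nuclear extract, both called, and 0.40 ± 0.155 with the cytoplasmic extract, not called. In fold terms these were 1.82, 1.63 and 1.32. The adjacent gene cyp-35A1, 545 bases away on the same strand, had 2 counts in all 12 libraries together.

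cyp-29A2 (CELE_T19B10.1), the second gene of the cyp-29A subfamily, lies on the plus strand of chromosome V at 11217583 to 11219911. Controls held 2.51, 3.40 and 4.20 CPM, and desiccated thymus 6.54, 4.87 and 5.03. The cytoplasmic extract gave 4.54, 3.68 and 3.36 CPM and the nuclear extract 3.86, 4.19 and 4.19. The 3 libraries of desiccated thymus were above the other 9, which overlapped. The log2 fold change with desiccated thymus was 0.70 ± 0.193, not called. It became called with no filter on low counts (0.71), with DESeq2 (0.69) and without control replicate 3 (0.89). With the nuclear extract it was 0.27 ± 0.195 and with the cytoplasmic extract 0.19 ± 0.195.

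cyp-35B1 (CELE_K07C6.4), also known as dod-13, is a known downstream gene of the insulin-regulated transcription factor DAF-16. It lies on the plus strand of chromosome V at 3939032 to 3941237, between cyp-35A5, 434 bases to one side, and cyp-35B2, 922 bases to the other. It gave 35.04, 31.6 and 38.1 CPM in the control and 32.6, 23.3 and 33.6 with desiccated thymus. It gave 32.1, 24.1 and 22.2 CPM with the cytoplasmic extract and 20.7, 19.7 and 21.6 with the nuclear extract. The nuclear extract libraries were below the other 9, while desiccated thymus and the cytoplasmic extract each overlapped the control. This was the only one of the 7 tested genes called lower, with a log2 fold change of -0.76 ± 0.152 with the nuclear extract, or 0.592 of the control level. It was -0.42 ± 0.150 with the cytoplasmic extract and -0.23 ± 0.150 with desiccated thymus, neither of them called. The neighbour cyp-35B2 averaged 0.983 CPM in the control, 1.62 with desiccated thymus, 0.850 with the cytoplasmic extract and 0.701 with the nuclear extract, and was not called against the control. The next gene of the row, cyp-35B3, had 6 counts in all 12 libraries.

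cyp-35C1 (CELE_C06B3.3), another P450 gene inducible by foreign compounds, lies on the minus strand of chromosome V at 13896663 to 13898487. Its libraries gave 3.75, 5.47 and 2.94 CPM in the control, 5.34, 3.37 and 5.08 with desiccated thymus, 4.80, 4.11 and 3.55 with the cytoplasmic extract and 4.25, 4.53 and 4.06 with the nuclear extract. The 4 diets overlapped throughout, and the controls alone covered a wider range than all other libraries together. Log2 fold changes against the control were 0.18, 0.03 and 0.07 with desiccated thymus, cytoplasmic extract and nuclear extract, and none was called.

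The remaining cyp-35A genes among the 9 were at the edge of detection. cyp-35A5 (CELE_K07C6.5; chromosome V, plus strand, 3936326 to 3938597) had 14, 4 and 15 counts in the control libraries and 8, 9 and 11 with desiccated thymus. It had 12, 9 and 17 counts with the cytoplasmic extract and 17, 12 and 11 with the nuclear extract. The diets overlapped and no comparison was called, with log2 fold changes against the control of -0.19, 0.15 and 0.33 in the same order of diets. cyp-35A3 (CELE_K09D9.2; chromosome V, plus strand, 4022609 to 4024482) and cyp-35A4 (CELE_C49G7.8; chromosome V, plus strand, 4031619 to 4033446) lie near each other and did not pass the filter. Of the 17 counts of cyp-35A3 with desiccated thymus, 14 came from replicate 1. Its sums were 1 count in the control, 12 with the cytoplasmic extract and 3 with the nuclear extract. An exact Poisson 95% interval is 9.90 to 27.2 counts for desiccated thymus and 0.0253 to 5.57 for the control, covering counting error only. It pools the libraries of a diet and so leaves out the spread between them. In the fit with no filter on low counts, cyp-35A3 was not called for desiccated thymus against the control (log2 fold change 3.52). cyp-35A4 had between 1 and 4 counts in every library, with sums of 6, 11, 7 and 6 in control, desiccated thymus, cytoplasmic extract and nuclear extract libraries. Differences between diets were not detectable for cyp-35A4 at this depth. Reads that match several of these related genes may have been dropped or split, since their handling is not given in the sources used here; the levels of the cyp-35A genes are therefore uncertain.

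**Figure D3:**
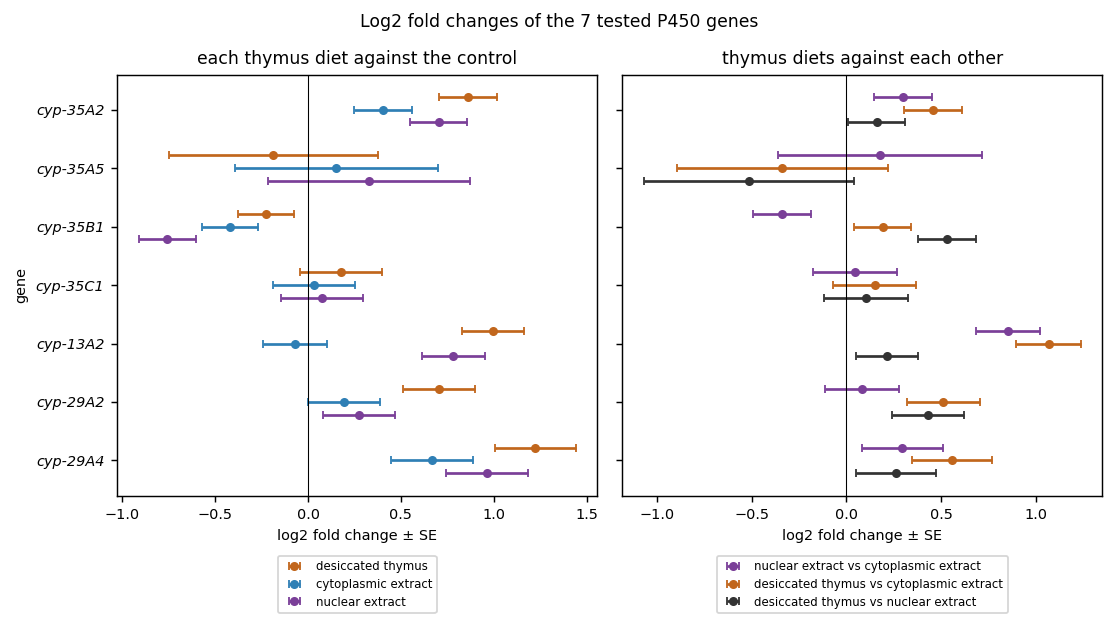
Log2 fold changes with standard errors of the 7 tested genes, on the left for each thymus diet against the control and on the right between the thymus diets. On the left cyp-29A4, cyp-13A2 and cyp-35A2 lie above 0 for desiccated thymus and the nuclear extract, and cyp-35B1 lies below 0. On the right cyp-13A2 stands out against the cytoplasmic extract.

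The thymus diets were also compared with each other. Between the nuclear and the cytoplasmic extract, 1 of the 7 tested genes was called, where 1.57% of all tested genes were called in either direction. This was cyp-13A2, higher with the nuclear extract by 0.85 ± 0.169 on the log2 scale. The call was lost without cytoplasmic extract replicate 2 (0.77) or 3 (0.83), and also without nuclear extract replicate 1 (0.87) or 3 (0.67). Between desiccated thymus and the cytoplasmic extract the same gene was again the 1 called, at 1.07 ± 0.169, where 1.05% of all tested genes were called. That call was lost without cytoplasmic extract replicate 2, where the value was 0.99. Between desiccated thymus and the nuclear extract, 0 of the 7 were called, where 0.144% of all tested genes were. In that comparison 2 of the 7 were higher with desiccated thymus at an unadjusted p under 0.05, and DESeq2 called 1, cyp-35B1, at 0.54.

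The differences with desiccated thymus were also computed without its replicate 3, the library with the high ribosomal share. Without it, the log2 fold changes against the control were 0.87 for cyp-35A2, 1.09 for cyp-13A2 and 1.30 for cyp-29A4, all still called. Calls of cyp-35A2 and cyp-35B1 against the control were the same in every alternative fit that was run. All these fits reuse the libraries on which the 9 genes were chosen, so a kept call is not independent support. The summed level of the 9 genes covered 54.3 to 60.3 CPM in the control, 61.0 to 74.2 with desiccated thymus, 44.8 to 60.6 with the cytoplasmic extract and 49.7 to 57.3 with the nuclear extract. Only desiccated thymus lay wholly above the control by this sum. With the nuclear extract cyp-35B1 was lower while cyp-13A2, cyp-35A2 and cyp-29A4 were higher. The median log2 fold change of the 7 tested genes was 0.70 with desiccated thymus, 0.15 with the cytoplasmic extract and 0.33 with the nuclear extract, and that of all tested genes -0.00, 0.00 and 0.02.

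The rest of the P450 family gives the setting for these genes. Of 66 other protein-coding P450 genes, 48 were tested, with median log2 fold changes of 0.18, 0.08 and 0.13 for desiccated thymus, cytoplasmic extract and nuclear extract. With desiccated thymus 1 of the 48 rose, cyp-37B1 (0.51 ± 0.0984, edgeR adjusted p = 0.00767), from 17.98 ± 1.56 to 25.6 ± 1.27 CPM (SD, n = 3). With the nuclear extract 5 rose and 1 fell. Those of largest change were cyp-14A5 (0.93, edgeR adjusted p = 0.0209), cyp-42A1 (0.76, 0.0257) and cyp-33C3 (0.76, 0.00990), which rose, and cyp-33C8 (-0.92, 0.0287), which fell. Across the 48, the number called with the nuclear extract dropped from 6 to 2 without control replicate 1, to 3 without nuclear extract replicate 2 and to 2 without nuclear extract replicate 3. With the replicate number as a block, cyp-33C8 was no longer called (adjusted p = 0.0530). With the cytoplasmic extract edgeR called 0 of the 48, DESeq2 called 1, and 6 were higher and 1 lower at an unadjusted p under 0.05. Of all tested genes, 3.00% were called higher and 0.938% lower with desiccated thymus, and 8.62% and 4.72% with the nuclear extract. With the cytoplasmic extract these shares were 0.459% and 0.192%. They also apply to the gene lists below, and nothing is read from a list's counts beside them. The other genes of the family share the libraries, and the 9 genes were picked with these values known. No test therefore sets the groups against each other.

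**Figure D4:**
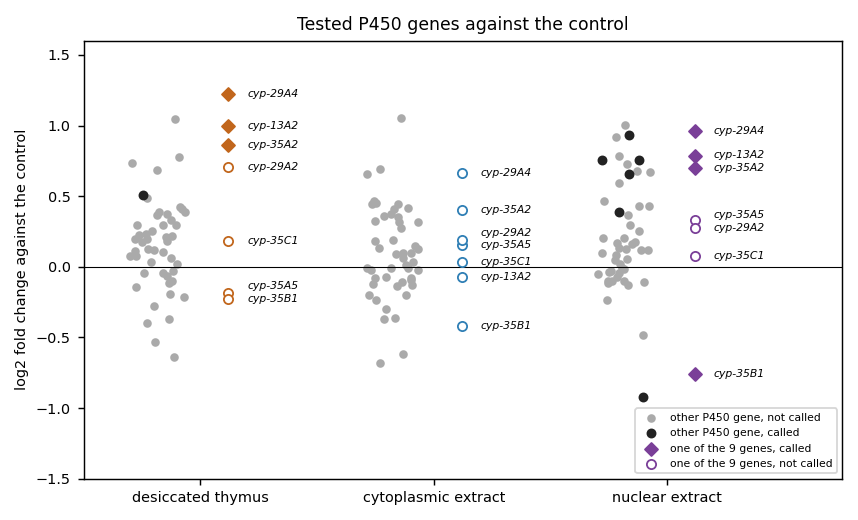
Log2 fold change against the control of the 48 other tested P450 genes (grey, black where called) and of the 7 tested genes of the 9 (coloured, with filled diamonds where called), for each thymus diet. The other genes spread around medians of 0.18, 0.08 and 0.13, and the named genes run from cyp-29A4 at the top to cyp-35B1 at the bottom.

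P450 enzymes depend on electron donors, and of 4 such genes only 1 was called. emb-8, the worm's P450 reductase, fell from 273 to 224 CPM with the nuclear extract, by 0.29 on the log2 scale (edgeR adjusted p = 0.0403). This call did not hold with the replicate block (adjusted p = 0.0707), with library totals only (0.103), with no filter (0.111), without control replicate 2 (0.101) or 3 (0.0935), or without any 1 of the nuclear extract replicates (0.0737 to 0.137). The cytochrome b5 genes cytb-5.1 (0.09 with the nuclear extract, edgeR adjusted p = 0.539) and cytb-5.2 (0.06, 0.459) were not called, nor was hpo-19 (-0.07, 0.270).

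Of 13 genes for regulators of foreign-compound and intestinal gene expression, 1 rose with desiccated thymus and 0 changed with the cytoplasmic extract. With the nuclear extract 2 rose and 1 fell, where 8.62% of all tested genes were called higher and 4.72% lower. The share called higher with desiccated thymus was 3.00%. For the cytoplasmic extract 1 was higher at an unadjusted p under 0.05 and DESeq2 called 0. elt-2, the GATA factor of intestinal genes, rose with desiccated thymus from 6.57 to 11.3 CPM (0.79 ± 0.149, edgeR adjusted p = 0.00696). It also rose with the nuclear extract (0.66 ± 0.149, adjusted p = 0.0108), a call lost without nuclear extract replicate 3 (0.0506). Both elt-2 and elt-7 are also among the intestinal markers below, so the calls of elt-2 count in both lists. The marker list likewise shares pgp-3 with the ABC exporters. mdt-15, a Mediator subunit that activates genes of fat metabolism and detoxification, rose with the nuclear extract by 0.16 (adjusted p = 0.00858). skn-1, the worm's Nrf-type stress factor, fell by 0.16 with the nuclear extract (adjusted p = 0.0332), a call lost without any 1 library of either diet (adjusted p from 0.0541 to 0.134) and with library totals only (0.354). daf-16, whose product acts upstream of cyp-35B1, was not called with the nuclear extract (0.02, edgeR adjusted p = 0.832). The activity of its product was not measured, and its part in the difference of cyp-35B1 was not tested.

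Marker genes of the intestine and of other tissues were examined in the same comparisons. Of 13 intestinal markers, 4 rose and 0 fell with desiccated thymus, where 3.00% of all tested genes were called higher. With the cytoplasmic extract 0 changed, and with the nuclear extract 5 rose and 0 fell, where 8.62% were called higher. The count with desiccated thymus was 2 without its replicate 2, and that with the nuclear extract was 3 without its replicate 3. For the cytoplasmic extract 2 were higher at an unadjusted p under 0.05, DESeq2 called 1, and edgeR called 1 without cytoplasmic extract replicate 2. The peptide transporter gene pept-1 rose by 1.15 with desiccated thymus (edgeR adjusted p = 0.00294) and by 1.86 with the nuclear extract (5.05e-05). Summed over the 13, the level was 1227 to 1311 CPM in the control, 1376 to 1603 with desiccated thymus, 1263 to 1459 with the cytoplasmic extract and 1466 to 1527 with the nuclear extract, and no marker was at 0 in all libraries. cyp-35B1 was lower with the nuclear extract, where these markers were higher. The part of the markers in the P450 differences was not tested. Markers of body wall muscle, sperm, coelomocytes and pharynx gave 0 calls by edgeR in the 3 comparisons with the control. Of these, 3 pharynx markers had an unadjusted p under 0.05, all higher with the nuclear extract, and 0 of the others did, and DESeq2 called 1 pharynx marker. For pharynx markers edgeR called 2 when control replicate 2 was left out, 1 when control replicate 3 was, and 3 when nuclear extract replicate 1 was. In the nuclear extract libraries 3 neuron markers rose and 1 fell, 2 of hypodermis rose, and 1 of germline rose and 2 fell. Neuron, hypodermis and germline markers gave 0 calls by edgeR with the other diets, where DESeq2 called 1 hypodermis marker higher and 1 germline marker lower with desiccated thymus, and 2 and 1 with the cytoplasmic extract. At an unadjusted p under 0.05, 3 of 6 hypodermis and 2 of 7 neuron markers were higher and 2 of 8 germline markers lower with desiccated thymus. The same counts were 2, 2 and 1 with the cytoplasmic extract. Median log2 fold changes of the hypodermis markers were 1.36, 1.54 and 1.72 for desiccated thymus, cytoplasmic extract and nuclear extract, and their summed level overlapped between the control (34.96 to 71.9 CPM) and each of these diets (53.2 to 74.6, 33.1 to 71.3 and 57.2 to 104.7). The part of these markers in the P450 differences was not tested. For hypodermis edgeR called 1 with desiccated thymus under the replicate block, and 1 with the cytoplasmic extract without its replicate 3. For neuron it called 1 with the cytoplasmic extract without control replicate 3. Without 1 library the counts for the nuclear extract ran from 0 to 4 higher and 0 to 1 lower for neuron, stood at 1 higher for hypodermis, and ran from 0 to 1 higher and 1 to 3 lower for germline.

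Genes of later steps in the handling of foreign compounds were examined in the same fits. Among ABC exporters, which pump compounds out of cells, 5 of 22 rose with desiccated thymus and 8 of 22 with the nuclear extract, and 0 fell in either. Against the control, the cytoplasmic extract had 0 edgeR calls, DESeq2 called 1, and 7 were higher at an unadjusted p under 0.05. pgp-1, an exporter of the P-glycoprotein family, rose from 3.91 CPM to 9.30 with desiccated thymus (1.25, edgeR adjusted p = 8.9e-05) and to 16.5 with the nuclear extract (2.08, 2.29e-07). The count with desiccated thymus was 2 without control replicate 1 or without any 1 of its own replicates. Of 58 tested UDP-glucuronosyltransferase genes, whose enzymes attach sugars to compounds, 5 rose and 2 fell with desiccated thymus, 3 rose with the cytoplasmic extract, and 17 rose and 1 fell with the nuclear extract. ugt-48 led the genes that rose, by 1.81 with desiccated thymus (edgeR adjusted p = 1.8e-05) and by 2.01 with the nuclear extract (3.34e-06). Leaving out control replicate 1 reduced the 17 to 11, and leaving out nuclear extract replicate 3 reduced them to 10. The number that rose with desiccated thymus was 5 without control replicate 2 and 2 or 3 without any other library of that comparison. Without control replicate 2 these were not the same 5 genes, since ugt-29 and ugt-46 lost their calls (edgeR adjusted p = 0.118 and 0.0555). With the cytoplasmic extract the number that rose was 1 without control replicate 1 or cytoplasmic extract replicate 2. It was 0 without cytoplasmic extract replicate 1 or 3. Without control replicate 3, ugt-17 and ugt-25 also lost their calls (edgeR adjusted p = 0.0774 and 0.0769). With only those diets fitted, ugt-17, ugt-25 and ugt-48 lost theirs (edgeR adjusted p = 0.191, 0.114 and 0.122). Of the 2 that fell with desiccated thymus, 1 was still called without control replicate 2 or 3 or its own replicate 1 or 3, and 0 without its own replicate 2. The 1 that fell with the nuclear extract was called only when control replicate 1 or nuclear extract replicate 3 was the library left out. With the replicate number as a block, desiccated thymus had 4 higher and 2 lower calls in this family, and the nuclear extract 16 higher and 1 lower.

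Of 34 tested glutathione S-transferase genes, 2 fell with desiccated thymus and 0 changed with the cytoplasmic extract. With the nuclear extract 3 rose and 4 fell, where 8.62% of all tested genes were called higher and 4.72% lower. For desiccated thymus these shares were 3.00% and 0.938%. gst-13 rose most with the nuclear extract (0.85, edgeR adjusted p = 0.00117), and gst-1 fell with desiccated thymus by 0.33 (0.00141). With the cytoplasmic extract 7 were lower at an unadjusted p under 0.05, and DESeq2 called 2. The 2 that fell with desiccated thymus became 1 without control replicate 2, and also without its own replicate 2 or 3. For the nuclear extract, only 1 rose when its replicate 2 or 3 or control replicate 1 or 2 was left out, and 2 fell without any 1 of the nuclear extract replicates. Of 29 tested short-chain dehydrogenase genes of the dhs series, 3 rose with desiccated thymus, 1 rose and 1 fell with the cytoplasmic extract, and 4 rose and 2 fell with the nuclear extract. dhs-21 rose in all 3, by 0.59 with desiccated thymus (edgeR adjusted p = 0.00767), 0.59 with the cytoplasmic extract (0.0205) and 1.00 with the nuclear extract (6.64e-05). Its call with the cytoplasmic extract was lost without control replicate 2 (0.0561) or 3 (0.0555) and without cytoplasmic extract replicate 1 (0.109) or 3 (0.105). The gene that fell with the cytoplasmic extract, dhs-9 (-0.41, edgeR adjusted p = 0.0192), lost its call without control replicate 2 (0.0550), without cytoplasmic extract replicate 1 (0.114) or 2 (0.0578), and with only those diets fitted (0.0756). In this series 1 gene rose with desiccated thymus when its replicate 3 or control replicate 1 was left out. For the nuclear extract 1 fell without any 1 library other than control replicate 3. Of 5 flavin monooxygenase genes, fmo-2 (1.20, edgeR adjusted p = 0.0238) and fmo-3 (0.90, 0.0389) rose with the nuclear extract, and leaving out any 1 library left 0 or 1 of them called. With desiccated thymus and with the cytoplasmic extract edgeR and DESeq2 each called 0 of the 5, and 1 was higher at an unadjusted p under 0.05 in each.

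The 7 tested genes did not move as 1 block across the 12 libraries. The pair most alike was cyp-13A2 and cyp-29A4, with a Pearson r of 0.83 across the libraries and 0.80 after removing the diet means. cyp-35A2 went with cyp-29A2 at 0.80, or 0.56 within diets, and with cyp-29A4 at 0.78, which became -0.19 within diets. The r of cyp-35B1 with cyp-35A2 was -0.39 across the libraries and 0.22 within diets, so its sign turned. These correlations share libraries, depth and scaling and are descriptions over 12 points in 4 diets.

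Genes other than the P450 genes chosen for this description were ranked by their likeness to the mean pattern of the 7 tested ones. Likeness was the Pearson r of log2 CPM over 12 libraries, among genes averaging at least 5 CPM. The 8 most alike were drd-1 (0.95), Y47H9C.1 (0.94), kola-4 (0.94), pitp-1 (0.92), C13G3.1 (0.92), K09F6.9 (0.92), T22B7.7 (0.90) and ugt-46 (0.90). Within diets the r of drd-1 was 0.92 and that of kola-4 was 0.83, and the other 6 lay between 0.60 and 0.71. For single genes the closest were asah-1 to cyp-35A2 (0.96), oac-59 to cyp-13A2 (0.96), T17H7.7 to cyp-29A4 (0.95), C50D2.7 to cyp-35B1 (0.94) and klo-1 to cyp-29A2 (0.92). For the genes with little difference between diets the closest were mrpl-41 to cyp-35A5 (0.86) and aakg-2 to cyp-35C1 (0.79). All these genes were picked for the largest r among all genes ranked, over only 12 points. Such picking yields high values by itself, so nothing is read from them.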

How the data were processed

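What the authors deposited is 1 table of read counts, whole numbers per gene, for the 12 libraries. Per the submitters' processing notes the tools were Trimmomatic, STAR, featureCounts and DESeq2, without versions. Chromosome accessions in its columns are those of WBcel235. Strand setting and handling of multiply matching reads are not given in the sources used here. Columns were matched to sample titles by the initials of the diet and the replicate number, an inference from names.

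Low genes were removed by filterByExpr (minimum count 10), leaving 14610, and TMM set the scale of each library. In edgeR 4.0.16 (R 4.3.3) a robust quasi-likelihood model with a mean per diet was fitted over the 12 libraries, with 8 residual degrees of freedom and a biological coefficient of variation of 12.7%. Two-sided tests from edgeR were adjusted by Benjamini-Hochberg over the 14610 genes, with a threshold of 0.05. Every adjusted p in the text is from this test or, where an alternative fit is named, from the same edgeR test in that fit. CPM values use TMM-scaled totals, and exon length is the gene length given in the deposited table.

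The 9 genes and all gene lists were chosen with earlier results of these data known. Named besides the 9 were up to 4 called genes of largest change per list and comparison averaging 1 CPM or more in the higher diet, all electron donors, all called regulators, and the genes most alike. cyp-35A1, cyp-35B2, cyp-35B3 and cyp-13A3 (as neighbours) and daf-16 fell outside this rule and were chosen after their values were seen.

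Replicate pairs differed by more than sampling noise (chi-square per degree of freedom 5.48 to 28.1, and 182 to 288 for pairs with desiccated thymus replicate 3), so all were kept. Same-numbered libraries deviated together across genes for the control and desiccated thymus (r = 0.149, 0.471 and 0.199), nuclear extract and control (0.383, 0.669 and 0.33), and desiccated thymus and the nuclear extract (0.254, 0.473 and 0.197). For the cytoplasmic extract, replicate 1 did not (-0.358 with the control). The pairing comes from these values only. Alternatives were RLE factors, library totals only, ribosomal RNA genes left out, no filter, DESeq2 1.42.0, only the compared diets, the replicate block, and each library left out.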

Additional observations from a re-analysis of the deposited data

How the results depend on the processing

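All 546 log2 fold changes of the 7 genes under the alternatives kept their direction where called and moved by less than the spread between replicates. The alternatives reuse the libraries on which the 9 genes were chosen and give no independent support. Numbers of the 9 genes called stayed within 1.5 times, except as follows. Leaving out 1 library gave 0 to 1 for the nuclear against the cytoplasmic extract and 0 to 1 for desiccated thymus against the cytoplasmic extract, against 1 in each with all libraries, and DESeq2 gave 1 for desiccated thymus against the nuclear extract, against 0. With the replicate block, 3, 0 and 4 of the 9 were called against the control for desiccated thymus, cytoplasmic extract and nuclear extract, and the block changed no call among the 9. Of the other P450 genes, for desiccated thymus 2 were called with no filter, 3 with DESeq2 and 1 to 2 without 1 library (1 with all). For the cytoplasmic extract 1 was called with no filter and 1 with DESeq2 (0 otherwise). For the nuclear extract 2 to 5 were called without 1 library (6 with all).

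Over all genes, desiccated thymus against the control gave 575 calls, 883 with DESeq2 and 321 with only those diets fitted. The cytoplasmic extract gave 95 calls, 244 with no filter, 340 with DESeq2 and 44 with only those diets fitted. The nuclear extract gave 1948 calls and 1097 with only those diets fitted. The cause of these differences was not tested. Without 1 library the counts ran from 300 to 513, 30 to 147 and 851 to 2137. Depth limits cyp-35A3, cyp-35A4 and cyp-35A5, where 3 counts equal 0.0880 to 0.138 CPM.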
